A study of Mus musculus and Homo sapiens with 24 samples.

Results

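The 10 human genes described here are *AXL*, *CD44*, *AHNAK*, *VIM*, *ANXA1*, *ANXA5*, *S100A4*, *S100A6*, *S100A10* and *LGALS1*, followed across 4 groups of K-562 cells. They are 10 of 58721 genes in the K-562 count files and 10 of the 17936 genes that passed the filter on low counts. The genes were selected on K-562 expression values from earlier results on the same libraries, such as the differences of *AXL* and *CD44* with the *MBD6* hairpin, so their K-562 values are given as a description, without p-values. K-562 is a human chronic myeloid leukaemia line with erythroid features. The 4 groups, with 3 poly(A) RNA libraries each, were *TET2* wild-type (WT) cells with a control hairpin (shControl), WT cells with a hairpin against *MBD6* (shMBD6), and *TET2*-knockout (KO) cells with shControl or shMBD6. TET2 oxidizes 5-methylcytosine, and MBD6 is a methyl-CpG-binding-domain protein. All 4 lines carried a lentiviral hairpin and were kept under puromycin, so the controls shared both. Whether the *TET2*-KO line is a single clone is not given in the sources used here. Mouse counterparts of the 10 genes were examined in LK cells, the Lin-Kit+ fraction of bone marrow that contains haematopoietic stem and progenitor cells, from mice aged 6 to 8 weeks. One LK experiment compared *Tet2* KO with *Tet2* WT cells. The other compared an antisense oligonucleotide (ASO) against IAP, a mouse endogenous retrovirus family, with a control ASO, both delivered by electroporation. Each LK group had 3 total RNA libraries, and the labels give no *Tet2* genotype for the ASO cells.

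The genes encode proteins of the cell surface and of the layer beneath it. AXL is a receptor tyrosine kinase activated by GAS6, and CD44 is a receptor for hyaluronan that is tethered to actin through ezrin, radixin and moesin. AHNAK is a giant scaffold under the plasma membrane that binds the complex of S100A10 with annexin A2, vimentin forms intermediate filaments, annexins A1 and A5 bind phospholipid in the presence of calcium, S100A4 and S100A6 are small calcium-binding proteins, and galectin-1, from *LGALS1*, binds galactosides. On hg38 *AXL* lies at chr19:41219223-41261766, *CD44* at chr11:35138882-35232402, *AHNAK* at chr11:62433542-62556235, *VIM* at chr10:17228241-17237593 and *ANXA1* at chr9:73151865-73170393. *ANXA5* lies at chr4:121667946-121696995, *LGALS1* at chr22:37675636-37679802, and on chromosome 1 *S100A6* at chr1:153534599-153536244, *S100A4* at chr1:153543613-153550136 and *S100A10* at chr1:151982915-151993859. Several of the proteins are widely used as markers of mesenchymal cells, and most are also found in leukocytes.

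Depth was 27.6 to 39.9 gene counts per K-562 library in units of 1000000. The *MBD6* level was 82.5 ± 5.6 CPM (counts scaled to a library of 1000000; SD, n = 3) in WT shControl and 38 ± 1.09 in WT shMBD6 cells, and 77.2 ± 4.59 and 43.3 ± 0.8 in the KO cells. *TET2* transcript lay between 28.4 and 37.8 CPM in every library, which does not check the knockout, as the position of the edit is not given in the sources used here. Spike-in (ERCC) RNA made up 0.872 to 0.881% of gene counts in WT shControl libraries and 0.32 to 0.397% in the other groups. Scaling by the spike-in therefore raised the median log2 difference over all genes to 1.13 for shMBD6 in WT cells and to 1.26 for *TET2* KO with shControl, against 0.18 for shMBD6 in KO cells and 0.31 for *TET2* KO with shMBD6, and set that of the interaction at −0.95. Each difference is therefore stated relative to the bulk of genes (TMM scaling), and the spike-in value is given where its sign differs. Of 10 erythroid markers 9 exceeded 1 CPM in every group, while their summed level was 2493 to 2594 CPM in WT shControl, 3270 to 3590 in WT shMBD6, 1370 to 1433 in KO shControl and 1349 to 1353 in KO shMBD6 libraries. Most of the sum in WT cells was *HBG2*, a fetal globin, at 1499, 2252, 463 and 558 CPM in that order. With shMBD6 in WT cells 4 of the 10 markers were higher and 4 lower (10 higher under spike-in scaling). Over all tested genes 20.4% were higher and 19.2% lower there. In *TET2* KO with shControl 1 marker was higher and 7 lower (6 and 2 under spike-in scaling), beside 22.2% and 20.7%. With shMBD6 *TET2* KO gave 0 higher and 8 lower (1 and 7 under spike-in scaling), beside 22.9% and 21.6%. The labels call the cells lymphoblasts, yet in each group only 1 of 5 B lymphoid and 1 of 5 T lymphoid markers exceeded 1 CPM.

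The term mesenchymal was checked against 10 fibroblast and mesenchymal markers. Their summed level was 1.88 to 2.37 CPM in WT shControl, 10.6 to 12.1 in WT shMBD6, 4.08 to 5.06 in KO shControl and 6.08 to 7.45 in KO shMBD6 libraries. In both shMBD6 groups most of this came from *COL1A1*, a collagen I chain, which averaged 1.03 ± 0.186, 9.81 ± 0.522, 0.788 ± 0.201 and 5.22 ± 0.883 CPM in those groups. Its partner chain *COL1A2* reached 2.16 ± 0.418 CPM in KO shControl cells and stayed at or under 0.516 CPM on average elsewhere, and *LUM* had no count in 3 of the 4 groups. In K-562 the genes are therefore called by name and not as a mesenchymal set. The *COL1A1* level was higher with shMBD6 in both genotypes, as were *AXL* and *CD44*, and its part in their differences was not tested. In bulk RNA a smaller number of expressing cells and a lower level per cell cannot be told apart.

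The sequence before the start site is shown for 4 genes with different behaviour: *AXL* and *AHNAK*, with the widest range of group means, and *ANXA1* and *S100A4*, the only windows of the 10 with TATAAA. Bases were read from hg38 before the GENCODE canonical start, 5′ to 3′ on the gene's strand, and capitals mark GGGCGG (an SP1 motif) or TATAAA on either strand.
AXL (chr19:41218973-41219222, plus strand): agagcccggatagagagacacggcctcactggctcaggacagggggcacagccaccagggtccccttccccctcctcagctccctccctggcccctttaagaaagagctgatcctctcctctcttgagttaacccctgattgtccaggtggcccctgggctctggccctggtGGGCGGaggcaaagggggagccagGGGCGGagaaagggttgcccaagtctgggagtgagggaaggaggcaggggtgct
AHNAK (chr11:62546834-62547056, minus strand): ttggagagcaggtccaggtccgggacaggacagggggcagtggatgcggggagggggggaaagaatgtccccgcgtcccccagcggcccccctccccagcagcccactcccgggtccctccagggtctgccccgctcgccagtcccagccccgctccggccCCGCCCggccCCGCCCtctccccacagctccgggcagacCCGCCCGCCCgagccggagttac
ANXA1 (chr9:73151615-73151864, plus strand): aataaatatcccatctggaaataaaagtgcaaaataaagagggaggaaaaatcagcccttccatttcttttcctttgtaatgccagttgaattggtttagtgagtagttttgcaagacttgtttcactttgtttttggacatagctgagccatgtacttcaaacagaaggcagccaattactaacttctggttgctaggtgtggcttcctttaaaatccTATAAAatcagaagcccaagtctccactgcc
S100A4 (chr1:153545807-153546056, minus strand): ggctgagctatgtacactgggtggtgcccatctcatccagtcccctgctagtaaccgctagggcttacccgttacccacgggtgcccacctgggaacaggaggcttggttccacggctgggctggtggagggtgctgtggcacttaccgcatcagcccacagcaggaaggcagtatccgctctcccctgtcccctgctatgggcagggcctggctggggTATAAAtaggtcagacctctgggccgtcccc
The *AHNAK* run stops after 223 bases, where an exon of another *AHNAK* transcript begins, and the *CD44* and *S100A6* windows lie in exons of other transcripts of these genes and are not printed. In the 250 bases before the start, *AXL* held 2 GGGCGG motifs and 4 CpG dinucleotides at 64.4% G and C, and *AHNAK* held 4 motifs and 22 CpG at 76.8%. *ANXA1* held no CpG at 38.4% G and C, and *S100A4* held 7 at 62.8%. Over 20044 protein-coding genes the median was 18 CpG and 63.2%. TATAAA lay 31 bases before the start in both *ANXA1* and *S100A4* and was present in 9.34% of all windows, and GGGCGG was present in 59% of all windows and in 8 of the 10 here. None of the 10 windows held the AP-1 motif TGANTCA, the TEAD motif GGAATG or the GATA motif AGATAA, which occurred in 4.73%, 9.87% and 6.55% of all windows.

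Per length of exon the genes spanned a wide range. In WT shControl cells *VIM* stood at 150 ± 0.52 CPM per kb (SD, n = 3), *ANXA1* at 101 ± 2.73, *LGALS1* at 90.6 ± 5.21, *ANXA5* at 71.3 ± 1.89 and *S100A6* at 45.5 ± 1.09. *AHNAK* was lower at 6.81 ± 0.0828 CPM per kb. *S100A4* followed at 0.834 ± 0.0927, then *S100A10* at 0.285 ± 0.112, *AXL* at 0.26 ± 0.0692 and *CD44* at 0.188 ± 0.0522, and the order of those last 3 is within their spread. In KO shMBD6 cells *VIM* reached 318 ± 2.58 and *AHNAK* 46 ± 0.528 CPM per kb, and *AHNAK* then exceeded *S100A6* at 31.9 ± 1.22. *S100A10* rested on only 5 to 25 counts and *S100A4* on 8 to 73 counts per library, so that their ratios are the least certain of the 10. In WT shControl cells *AXL* also rested on only 34 to 48 and *CD44* on 40 to 72 counts per library. The ratios of *AXL* and *CD44* to that group share this limit.

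**Figure D1:**
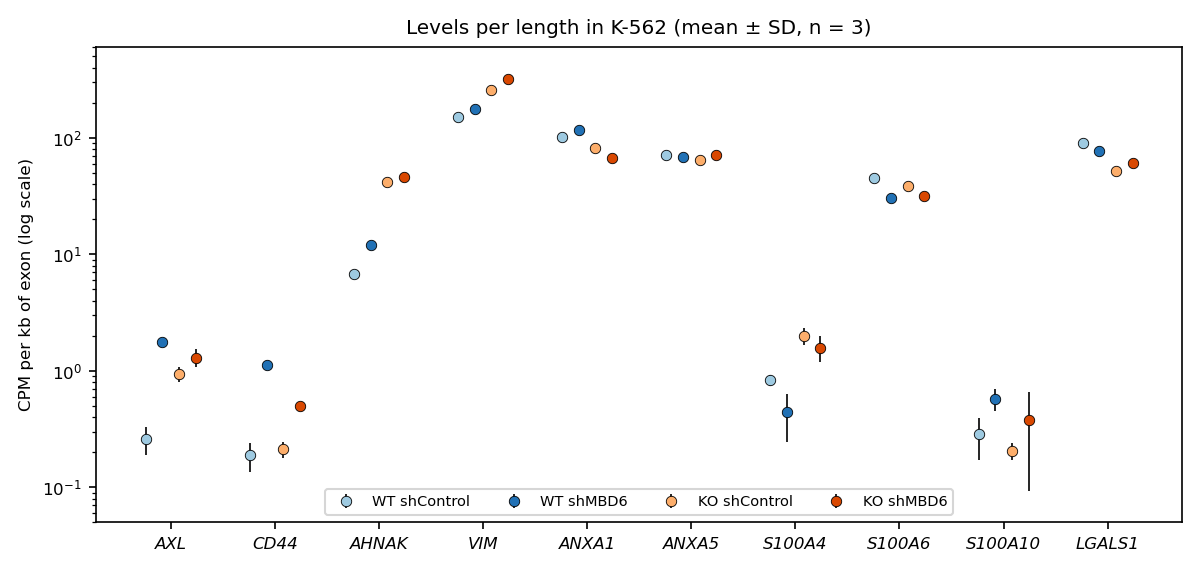
Mean level per kb of exon (log axis) of each gene in the 4 K-562 groups; bars are the SD of 3 libraries. *VIM*, *ANXA1*, *ANXA5*, *LGALS1* and *S100A6* lie between 30.5 and 318 CPM per kb in every group, and *AXL*, *CD44*, *S100A4* and *S100A10* at or below 1.99.

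*AXL* was lowest in WT shControl cells and highest in WT shMBD6 cells. The libraries measured 1.74, 1.08 and 1.18 CPM in WT shControl, 9.11, 8.79 and 9.13 in WT shMBD6, 4.09, 4.99 and 5.48 in KO shControl, and 7.99, 6.03 and 5.94 in KO shMBD6 cells. No 2 groups overlapped, and the order was WT shControl, KO shControl, KO shMBD6, WT shMBD6. The log2 difference with shMBD6 was 2.78 (SE 0.176), or 6.86-fold, in WT cells and 0.46 (SE 0.15), or 1.37-fold, in KO cells, and the second fell to 0.30 without KO shMBD6 replicate 1 and to 0.34 without KO shControl replicate 1. Both fits, and the fit without KO shControl replicate 2 at 0.47, left *AXL* short of the threshold in KO cells. *TET2* KO gave 1.88 (SE 0.183) with shControl and −0.43 (SE 0.144) with shMBD6, and the latter was −0.37 without KO shMBD6 replicate 2, −0.36 without replicate 3 and −0.13 under spike-in scaling, all short of the threshold. *AXL* overlaps 1 gene on the other strand, and whether counting used strand is not given in the sources used here, so shared reads cannot be told apart. The difference between the *MBD6*-hairpin effects of the genotypes, KO minus WT, was −2.32 (SE 0.234).

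AXL belongs to the TAM receptors with TYRO3 and MERTK, whose ligands are GAS6 and protein S (*PROS1*). All 4 related genes were tested. This and the other related lists were drawn up with earlier results of these data known, and genes were named mostly because they passed. The p-values of related genes are therefore a description as well. With shMBD6, *MERTK* was the only one of the 4 past the threshold in either genotype, rising from 3.8 to 5.91 CPM in WT cells (log2 difference 0.64, edgeR adjusted p = 0.00152) and from 6.87 to 9.95 CPM in KO cells (0.53, edgeR adjusted p = 0.00357). *GAS6* measured 30.9 ± 1.11 CPM in WT shControl and 31.6 ± 0.843 in WT shMBD6 cells. In *TET2* KO with shMBD6 *GAS6* fell to 26.5 CPM (−0.25, edgeR adjusted p = 0.00234; 0.04 under spike-in scaling) and *PROS1* from 92.1 to 70.5 CPM (−0.39, edgeR adjusted p = 1.33e-07; −0.09 under spike-in scaling). The receptors *MERTK*, from 5.91 to 9.95 CPM, and *TYRO3* were higher in that comparison. It thus gave 2 of the 4 higher and 2 lower (2 and 0 under spike-in scaling), beside 22.9% and 21.6% of all tested genes. In *TET2* KO with shControl *MERTK* rose by 0.85 and *TYRO3* by 0.58 (edgeR adjusted p = 5.92e-05 and 1.82e-06), while *PROS1* was 0.29 lower (−0.29, edgeR adjusted p = 6.86e-06) but higher by 0.97 under spike-in scaling. The interaction was −0.10 for *MERTK* and −0.21 for *TYRO3* (edgeR adjusted p = 0.761 and 0.167).

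*CD44* was higher with the *MBD6* hairpin in both genotypes, and overlapped between genotypes without it. It measured 2.43, 1.81 and 1.39 CPM in WT shControl, 11.5, 10.6 and 11.3 in WT shMBD6, 2.47, 1.82 and 2.07 in KO shControl, and 4.85, 4.96 and 5.08 in KO shMBD6 cells. The control-hairpin groups overlapped, and the shMBD6 groups lay apart from them and from each other. The log2 difference with shMBD6 was 2.58 (SE 0.156) in WT and 1.22 (SE 0.158) in KO cells, a difference of −1.35 (SE 0.225) between genotypes. *TET2* KO gave 0.18 (SE 0.178) with shControl, the 2 groups overlapping, and −1.17 (SE 0.138) with shMBD6. *CD44* overlaps *CD44-AS1* and *CD44-DT* on the other strand and 1 unnamed gene on its own.

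Of 15 genes for CD44 partners and hyaluronan metabolism 10 were tested. With shMBD6 in WT cells 3 rose and 1 fell (9 higher and 0 lower under spike-in scaling), beside 20.4% and 19.2% of all tested genes. In KO cells 5 rose and 1 fell (6 and 0), beside 18.5% and 16.3%. The linkers differed in level and direction. *MSN* (moesin), the most abundant, was 1370 ± 4.22 CPM in WT shControl and 1384 ± 9.97 in WT shMBD6 cells. In KO cells *MSN* fell with shMBD6 from 1496 to 1321 CPM (−0.18, edgeR adjusted p = 4.6e-06; 0.00 under spike-in scaling), and its interaction was −0.19 (edgeR adjusted p = 0.000245). *RDX* (radixin) rose from 165 to 229 CPM in WT shMBD6 cells (0.48, edgeR adjusted p = 1.96e-09), and its response was smaller in KO cells (interaction −0.32, edgeR adjusted p = 8.98e-05). *EZR* (ezrin) fell from 636 to 423 CPM in *TET2* KO with shControl (−0.59, edgeR adjusted p = 1.24e-12; higher by 0.67 under spike-in scaling). *SRGN*, a proteoglycan core protein that binds CD44, rose with shMBD6 by 0.20 in WT and 0.45 in KO cells (edgeR adjusted p = 0.00366 and 3.62e-07). *HYAL1*, a hyaluronidase, rose from 4.2 to 7.34 CPM in KO cells (0.81, edgeR adjusted p = 0.000191). The hyaluronan synthase *HAS2* was at 0 counts in both WT groups.

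**Figure D2:**
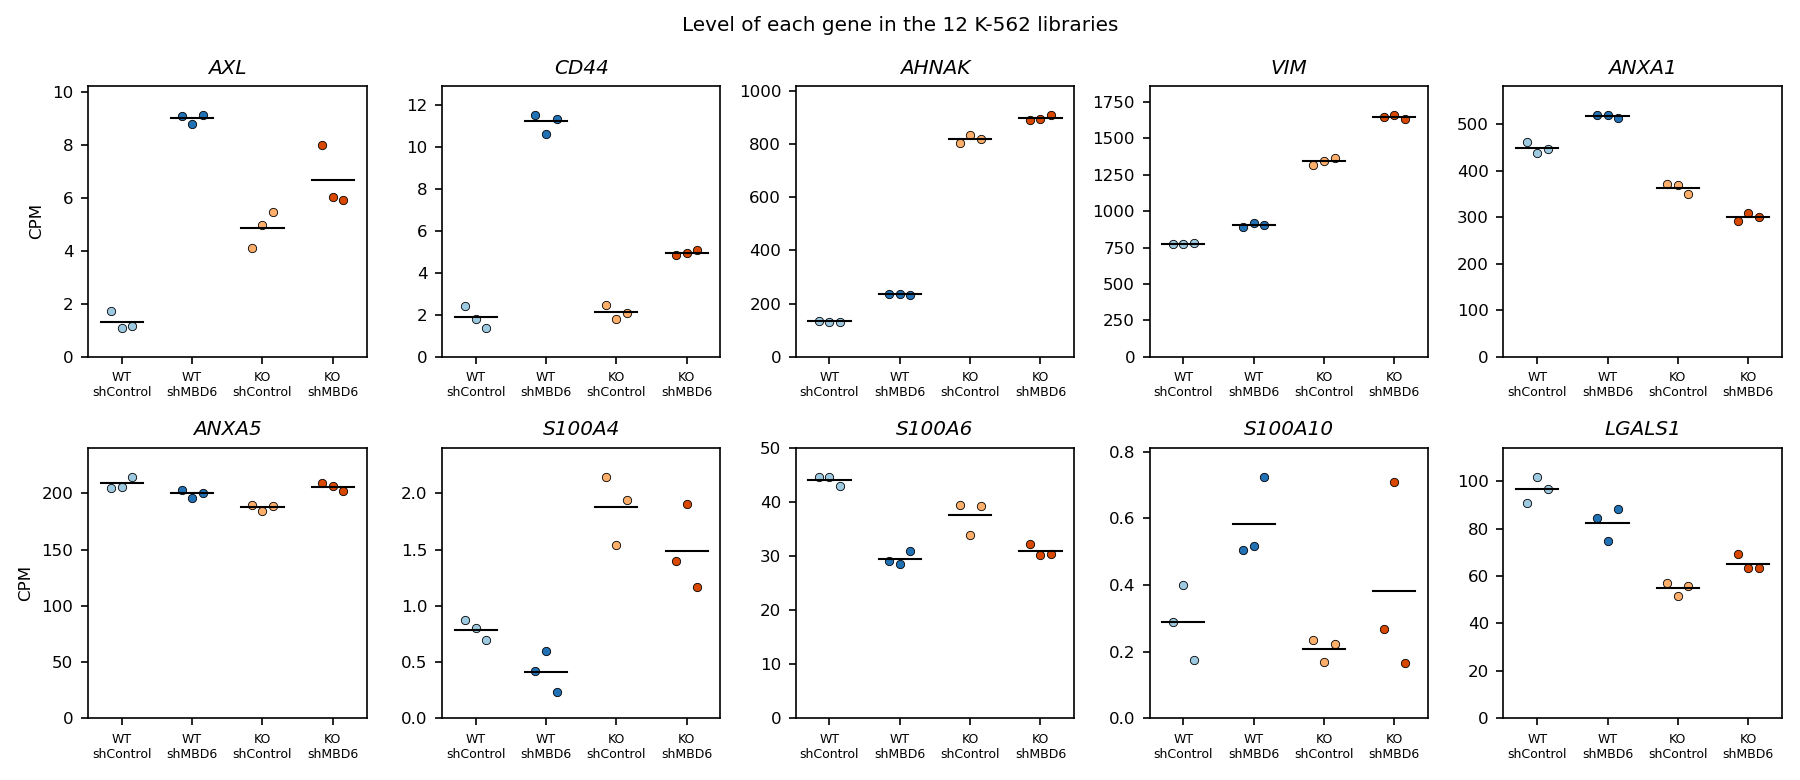
CPM of each gene in every K-562 library (points) with the mean of 3 (line); each panel starts at 0 and has its own scale. *AXL* and *CD44* are highest in WT shMBD6 cells, *AHNAK* and *VIM* are highest in *TET2*-KO cells, and each *S100A10* group overlaps the next in order of level.

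*AHNAK* differed most by genotype. It measured 134, 132 and 132 CPM in WT shControl, 235, 235 and 234 in WT shMBD6, 803, 832 and 819 in KO shControl, and 889, 892 and 908 in KO shMBD6 cells, with no overlap between any groups. *TET2* KO gave a log2 difference of 2.63 (SE 0.0281), or 6.17-fold, with shControl and 1.93 (SE 0.027) with shMBD6. The hairpin gave 0.82 (SE 0.0274) in WT and 0.13 (SE 0.0259) in KO cells, and the interaction was −0.69 (SE 0.0376). Leaving out single libraries kept the shControl value between 2.61 and 2.64. *AHNAK* overlaps 2 genes on the other strand, so shared reads cannot be told apart. Among the 45 tested genes starting within 1 Mb of *AHNAK* the median for *TET2* KO with shControl was −0.08, and 1 was at least as far up. For shMBD6 in WT cells their median was −0.15 and the highest value 3.24, and 3 were at least as far up as *AHNAK*.

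AHNAK2 is the paralogue of AHNAK, and dysferlin acts with AHNAK in the repair of the plasma membrane. Of 13 genes listed for AHNAK2, dysferlin and membrane repair 10 were tested, and in *TET2* KO with shControl 2 rose and 4 fell, beside 22.2% and 20.7% of all tested genes (9 were higher and 0 lower under spike-in scaling). With shMBD6 4 rose and 3 fell in WT cells (10 and 0 under spike-in scaling), beside 20.4% and 19.2%. In KO cells 3 rose and 5 fell with shMBD6 (5 and 2), beside 18.5% and 16.3%. *AHNAK2* was near the limit of detection at 0.275 CPM in WT shControl and 0.717 in WT shMBD6 cells (1.38, edgeR adjusted p = 0.0158) and at 0.213 and 1.25 in the KO groups (2.56, edgeR adjusted p = 0.0001). *DYSF*, the membrane-repair protein dysferlin, fell with shMBD6 from 14.6 to 4.1 CPM in KO cells (−1.83, edgeR adjusted p = 3.45e-10) and from 12.4 to 7.01 in WT cells (−0.82, edgeR adjusted p = 9.63e-06; 0.32 higher under spike-in scaling). Its interaction was −1.01 (edgeR adjusted p = 0.000202). *CAVIN1* rose from 148 to 212 CPM with shMBD6 in WT cells (0.51, edgeR adjusted p = 1.44e-09), and the calpain small subunit *CAPNS1* fell by 0.56 (edgeR adjusted p = 3.41e-09; 0.58 higher under spike-in scaling). *EHD2* was lower in *TET2* KO, by −0.47 with shControl (0.78 under spike-in scaling) and −0.60 with shMBD6 (edgeR adjusted p = 3.36e-08 and 9.93e-10).

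*VIM* was the most abundant of the 10 and was higher at each step from WT to KO and from shControl to shMBD6. It measured 774, 775 and 779 CPM in WT shControl, 891, 919 and 905 in WT shMBD6, 1317, 1347 and 1363 in KO shControl, and 1648, 1660 and 1633 in KO shMBD6 cells, again without overlap. *TET2* KO gave 0.79 (SE 0.0243) with shControl and 0.86 (SE 0.0242) with shMBD6. The hairpin gave 0.22 (SE 0.0242) in WT and 0.30 (SE 0.024) in KO cells, and the interaction was 0.07 (SE 0.0341) and −0.88 under spike-in scaling. *VIM* overlaps 2 genes on the other strand, *VIM-AS1* among them.

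Of 17 other intermediate filament genes 13 were tested. With shMBD6 in WT cells 5 rose and 2 fell (12 higher and 0 lower under spike-in scaling), beside 20.4% and 19.2% of all tested genes. In KO cells 7 rose and 3 fell with shMBD6 (8 and 1), beside 18.5% and 16.3%. *NES* (nestin) rose from 15 to 34.8 CPM in WT cells, and from 18 to 39.6 in KO cells (1.21 and 1.14, edgeR adjusted p = 1.87e-11 and 3.29e-11). *DES* (desmin) moved the other way, from 41.1 to 17.6 and from 55.5 to 28.4 CPM (−1.22 and −0.97, edgeR adjusted p = 8.2e-12 and 1.27e-10), and by −0.08 and −0.78 under spike-in scaling. The keratin *KRT8* fell from 655 to 439 CPM in *TET2* KO with shControl (−0.58, edgeR adjusted p = 3.76e-12; 0.68 higher under spike-in scaling) and rose to 606 CPM in KO shMBD6 cells (0.47, edgeR adjusted p = 3.6e-10). K-562 held keratin and vimentin transcripts side by side, and 4 of 5 epithelial markers exceeded 1 CPM in every group.

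*ANXA1* was higher with the hairpin in WT cells and lower in KO cells. It measured 462, 438 and 446 CPM in WT shControl, 519, 520 and 513 in WT shMBD6, 371, 370 and 350 in KO shControl, and 292, 309 and 301 in KO shMBD6 cells. The groups did not overlap. The log2 difference with shMBD6 was 0.21 (SE 0.0313) in WT and −0.27 (SE 0.0316) in KO cells, and 1.35 and −0.09 under spike-in scaling. *TET2* KO gave −0.30 (SE 0.0315) with shControl, but 0.95 under spike-in scaling, and −0.78 (SE 0.0316) with shMBD6. The interaction for *ANXA1* was −0.48 (SE 0.0445).

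*ANXA5* varied least, between 184 and 215 CPM over the 12 libraries. Its group means were 209 ± 5.54, 200 ± 3.45, 188 ± 3.2 and 206 ± 3.39 CPM in WT shControl, WT shMBD6, KO shControl and KO shMBD6 cells, and only the lowest group lay apart from its neighbour. The hairpin gave −0.06 (SE 0.0318) in WT cells, 1.08 under spike-in scaling, and 0.13 (SE 0.0318) in KO cells. The lower *ANXA5* value in *TET2* KO with shControl, −0.15 (SE 0.0319), became 1.11 under spike-in scaling. The interaction of 0.20 (SE 0.045) became −0.76.

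Of 10 other annexins 7 were tested. *ANXA3* rose from 35.7 to 78.3 CPM in *TET2* KO with shControl and from 33.5 to 73.5 with shMBD6 (1.13 in each, edgeR adjusted p = 2.99e-14 and 3.01e-14). With shMBD6 in WT cells 1 annexin rose and 3 fell (6 higher and 1 lower under spike-in scaling), beside 20.4% and 19.2% of all tested genes. *ANXA9* fell there from 3.36 to 1.07 CPM (−1.65, edgeR adjusted p = 1.5e-05). *ANXA4* and *ANXA11* fell by 0.44 and 0.27 there (edgeR adjusted p = 0.000172 and 2.5e-06) but were 0.70 and 0.87 higher under spike-in scaling. *ANXA2*, the partner of S100A10, lay between 194 and 236 CPM in the group means and rose by 0.13 with shMBD6 in KO cells (edgeR adjusted p = 0.00477).

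The S100 genes split by level. *S100A6* overlaps 1 gene on the other strand, so shared reads cannot be told apart. *S100A6* measured 44.7, 44.8 and 43 CPM in WT shControl, 29.1, 28.6 and 31 in WT shMBD6, 39.6, 34 and 39.3 in KO shControl, and 32.3, 30.2 and 30.4 in KO shMBD6 cells, so that both shMBD6 groups lay below both control-hairpin groups. The hairpin gave −0.58 (SE 0.0634) in WT cells, but 0.56 under spike-in scaling, and −0.28 (SE 0.0634) in KO cells, −0.10 under it. *TET2* KO gave *S100A6* a difference of −0.23 (SE 0.0626) with shControl, 1.02 under spike-in scaling, and of 0.07 (SE 0.064) with shMBD6. The interaction of 0.30 (SE 0.0896), −0.66 under spike-in scaling, missed the threshold in 5 of 12 fits that each left out 1 library, at 0.22 without KO shControl replicate 2, 0.26 without KO shMBD6 replicate 1, 0.27 without WT shMBD6 replicate 2, 0.28 without WT shControl replicate 2 and 0.29 without WT shMBD6 replicate 1.

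*S100A4* was higher in *TET2* KO under either hairpin. It measured 0.87, 0.803 and 0.696 CPM in WT shControl, 0.417, 0.597 and 0.232 in WT shMBD6, 2.15, 1.54 and 1.94 in KO shControl, and 1.4, 1.91 and 1.17 in KO shMBD6 cells. *TET2* KO gave 1.24 (SE 0.295) with shControl and 1.82 (SE 0.32) with shMBD6. The hairpin gave −0.91 (SE 0.343) in WT cells, 0.22 under spike-in scaling, and −0.33 (SE 0.273) in KO cells, where the groups overlapped. The WT value missed the threshold without WT shControl replicate 1 (−0.84) or 2 (−0.89) and without WT shMBD6 replicate 1 (−0.91) or 3 (−0.63), and also with no filter on low counts (−0.90) and with only the groups compared in the fit (−0.91). Reads of *S100A4* may be shared with the overlapping *S100A3* on the same strand. *S100A10* measured between 0.167 and 0.725 CPM, did not pass in any comparison at TMM scaling, and had a log2 difference of 0.97 (SE 0.512) with shMBD6 in WT cells and of 0.84 (SE 0.556) in KO cells, the second falling to 0.07 without KO shMBD6 replicate 2.

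Of 16 other S100 genes only 5 were tested. Over all tested genes 20.4% rose and 19.2% fell with shMBD6 in WT cells. With shMBD6 in WT cells 3 of the 5 fell, among them *S100P* from 12.1 to 8.24 CPM (−0.56, edgeR adjusted p = 0.00029), with *S100A1* and *S100A11* at −0.45 and −0.35 (edgeR adjusted p = 0.0245 and 8.65e-08), and all 3 were higher under spike-in scaling, at 0.58, 0.69 and 0.79. In *TET2* KO with shControl 3 rose and 1 fell (5 higher and 0 lower under spike-in scaling), beside 22.2% and 20.7% of all tested genes. *S100A16* rose from 0.278 to 1.53 CPM (2.44, edgeR adjusted p = 1.26e-05), and *S100A11* fell from 308 to 262 CPM (−0.23, edgeR adjusted p = 1.27e-05; 1.03 higher under spike-in scaling).

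*LGALS1* was highest in WT shControl cells. It measured 91, 102 and 96.7 CPM there, 84.3, 74.7 and 88.1 in WT shMBD6, 56.9, 51.8 and 55.8 in KO shControl, and 69.3, 63.3 and 63.2 in KO shMBD6 cells, without overlap. The hairpin gave −0.23 (SE 0.0587) in WT and 0.25 (SE 0.0606) in KO cells, but 0.91 and 0.44 under spike-in scaling. *TET2* KO gave −0.82 (SE 0.0601) with shControl, 0.44 under spike-in scaling, and −0.33 (SE 0.0594) with shMBD6, which was −0.03 and short of the threshold under spike-in scaling. The interaction for *LGALS1* was 0.49 (SE 0.0843), and −0.47 under spike-in scaling. Of 8 other galectins 5 were tested. *LGALS12* fell from 14 to 4.19 CPM in *TET2* KO with shControl (−1.74, edgeR adjusted p = 9.15e-10), and *LGALS8* rose from 194 to 260 CPM (0.42, edgeR adjusted p = 5.79e-09) and, with shMBD6, from 160 to 284 (0.83, edgeR adjusted p = 1.48e-13).

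**Figure D3:**
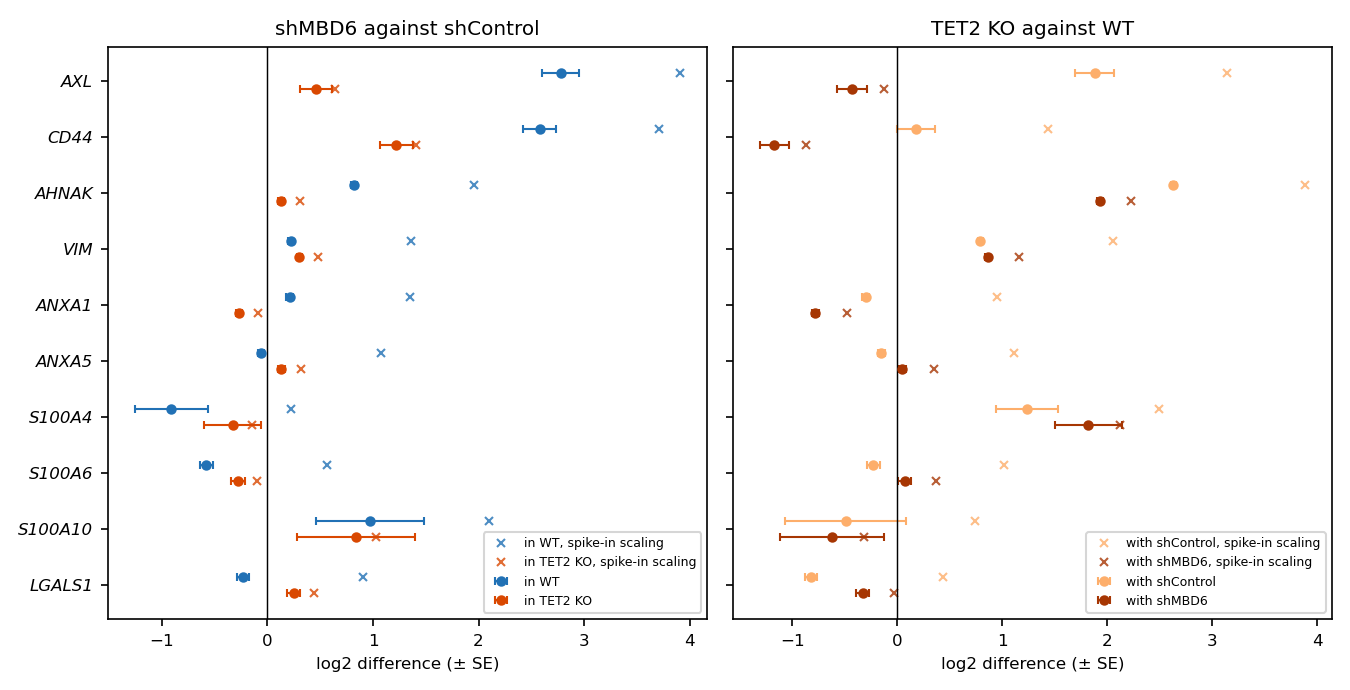
Log2 difference (filled circles, bars SE) of each gene for shMBD6 against shControl (left) and *TET2* KO against WT (right), with the value under spike-in scaling (crosses). *AXL* and *CD44* lie furthest right for shMBD6 in WT cells at 2.78 and 2.58; *S100A4*, *S100A6*, *LGALS1* and *ANXA5* change sign there under spike-in scaling, as do *ANXA1*, *ANXA5*, *S100A6*, *S100A10* and *LGALS1* for *TET2* KO with shControl.

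Counted over the 10 genes at an edgeR adjusted p under 0.05, 5 were higher and 3 lower with shMBD6 in WT cells, where 20.4% of all tested genes were higher and 19.2% lower, and under spike-in scaling 9 of the 10 were higher and 0 lower. In KO cells 6 were higher and 2 lower, beside 18.5% and 16.3% (6 and 1 under spike-in scaling). *TET2* KO with shControl gave 4 higher and 4 lower, beside 22.2% and 20.7% (9 and 0 under spike-in scaling), and with shMBD6 3 higher and 4 lower, beside 22.9% and 21.6% (5 and 2). The interaction gave 3 higher and 4 lower, beside 10.3% and 11.0% (0 and 8 under spike-in scaling). These comparisons helped to choose the genes, so the counts are a description. The comparisons also share libraries, each group entering more than 1 of them. The medians of the 10 were 0.21, 0.19, 0.02, −0.14 and −0.03 in that order, and those of all tested genes were within 0.01 of 0. For *AXL* in WT cells the 48 tested genes starting within 1 Mb had a median of −0.13 with shMBD6 and a highest value of 1.01, and for *CD44* the 10 such genes had a median of 0.03 and a highest value of 1.04. For *TET2* KO with shControl the *AXL* neighbours had a median of −0.04 and a highest value of 2.84, and 2 were at least as far up as *AXL*.

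Of 153 related genes 109 were tested. With shMBD6 in WT cells 42 rose and 26 fell, with 102 higher and 1 lower under spike-in scaling, beside 20.4% and 19.2% of all tested genes. In KO cells 47 rose and 21 fell (70 and 6 under spike-in scaling), beside 18.5% and 16.3%. In *TET2* KO with shControl 34 rose and 42 fell (103 and 2 under spike-in scaling), beside 22.2% and 20.7% of all tested genes. With shMBD6 *TET2* KO gave 30 higher and 42 lower (65 and 16), beside 22.9% and 21.6%.

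Actin and focal adhesion genes, which build the cortex to which CD44 and AHNAK attach, gave 36 tested genes. Of these 18 rose and 11 fell with shMBD6 in WT cells (35 higher and 0 lower under spike-in scaling). In KO cells 15 rose and 6 fell with shMBD6 (26 and 2 under spike-in scaling). Over all tested genes 20.4% rose and 19.2% fell with shMBD6 in WT cells, and 18.5% and 16.3% in KO cells. *MYL9*, a myosin light chain, rose from 1.91 to 4.51 CPM in WT cells, and from 1.76 to 4.25 in KO cells (1.26 and 1.27, edgeR adjusted p = 4.53e-06 and 5.23e-06). *FLNA*, an actin crosslinker, rose from 795 to 1296 CPM in KO cells (0.70, edgeR adjusted p = 1.34e-13), and *TPM4* rose from 422 to 678 CPM in WT cells (0.68, edgeR adjusted p = 4.39e-13). In *TET2* KO with shControl 19 of the 36 fell and 9 rose, beside 20.7% and 22.2% of all tested genes. Under spike-in scaling 34 were higher and 0 lower in *TET2* KO with shControl. *GSN* (gelsolin) fell from 37.9 to 15.8 CPM (−1.26, edgeR adjusted p = 1.01e-12), which was −0.00 under spike-in scaling, and *ZYX* (zyxin) rose from 82.4 to 141 CPM (0.77, edgeR adjusted p = 3.86e-11).

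Transcription factors of the epithelial to mesenchymal transition, with cadherins, were tested for 5 of 14 genes. *SNAI1* rose with shMBD6 from 5.11 to 7.64 CPM in WT cells, and from 7.97 to 11 in KO cells (0.57 and 0.47, edgeR adjusted p = 0.000877 and 0.00334). *ZEB2* rose from 132 to 169 and from 133 to 158 CPM (0.35 and 0.26, edgeR adjusted p = 1.92e-07 and 1.56e-05). Of 19 TEAD and AP-1 genes 14 were tested. With shMBD6 in WT cells 6 rose and 1 fell (14 higher and 0 lower under spike-in scaling), beside 20.4% and 19.2% of all tested genes. In KO cells 9 rose and 2 fell with shMBD6 (11 and 1), beside 18.5% and 16.3%. *JUN* rose from 71.8 to 99.1 CPM in WT cells, and from 47.6 to 70.5 in KO cells (0.47 and 0.56, edgeR adjusted p = 9.97e-07 and 1.49e-07), and *FOSL1* rose from 11.7 to 21.7 CPM in WT cells (0.89, edgeR adjusted p = 6.11e-09), with a smaller response in KO cells (interaction −0.40, edgeR adjusted p = 0.00732).

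**Figure D4:**
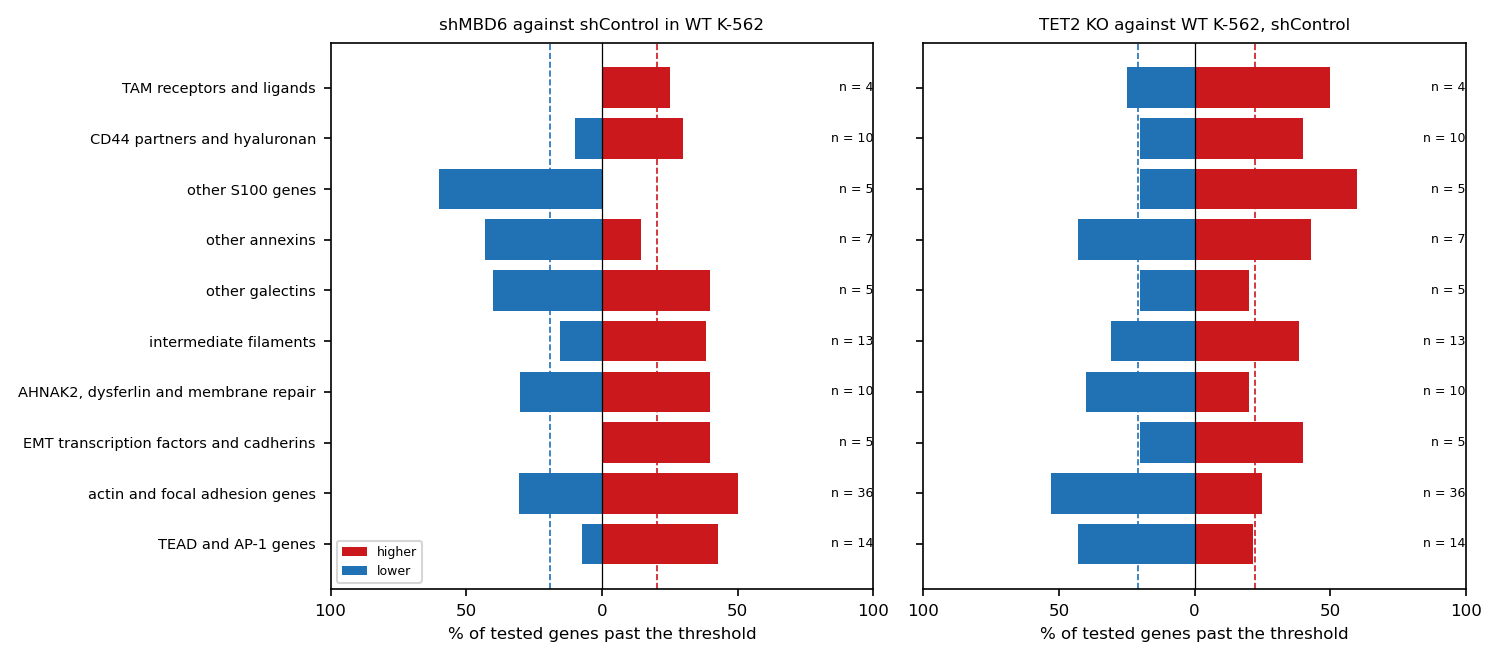
Share of the tested genes of each related list that were higher (red) or lower (blue) at an edgeR adjusted p under 0.05, for shMBD6 in WT cells (left) and *TET2* KO with shControl (right); dashed lines give the share over all tested genes (20.4% and 19.2% left, 22.2% and 20.7% right). Among S100 genes 3 of 5 were lower on the left; under spike-in scaling 102 of the 109 related genes were higher and 1 lower on the left, and 103 and 2 on the right.

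The genes whose pattern was most like each of the 10 were sought among 802 genes with a mean of at least 5 CPM and a range of at least 1 log2 unit between group means, by Pearson's r of log2 CPM over the 12 libraries. The points share groups, so r describes 4 group levels with 3 libraries each. For *AHNAK* these were *FHAD1*, *KIT* and *SETD7* (r = 0.997, 0.997 and 0.996), and *KIT*, the stem cell factor receptor, averaged 0.53, 1.43, 12.4 and 17.6 CPM in WT shControl, WT shMBD6, KO shControl and KO shMBD6 cells. For *VIM* they were *SLC27A2*, *VCX3B* and *MAGEC1* (0.996, 0.996 and 0.995). For *AXL* they were *ENSG00000279377*, *LINGO1* and *FBXO41* (0.957, 0.954 and 0.945), and for *CD44* they were *CAMSAP2*, *MYRF* and *VSTM4* (0.958, 0.956 and 0.954). *ANXA1* was closest to *KCNK1*, *SLC2A1* and *FGFR3* (0.983, 0.983 and 0.966), and the glucose transporter *SLC2A1* averaged 141, 170, 87.3 and 68 CPM in the same group order. *LGALS1* was closest to *HMGB3*, *FAM50A* and *RTL8A* (0.977, 0.972 and 0.971), which all lie on chromosome X. The others were *PLCB4*, *FOXH1* and *LINC02154* for *S100A4* (0.955, 0.950 and 0.947), *LINC01088* and *JAKMIP3* for *S100A6* (0.965 and 0.932), *TDRG1*, *CCRL2* and *H2AC8* for *ANXA5* (0.888, 0.885 and 0.827), and *STK36*, *CPOX* and *ADCY6* for *S100A10* (0.822, 0.779 and 0.766).

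The mouse counterparts were measured in libraries outside the K-562 groups on which the genes were chosen, and were tested. Earlier results of these data were known at that choice, so it may not have been blind to the LK libraries. All 10 passed the filter in both LK experiments, whose libraries held 1277 to 1468 CPM of 8 summed stem and progenitor markers in the *Tet2* groups and 475 to 509 in the ASO groups. In *Tet2* KO against WT LK cells, *Ahnak* and *S100a10* passed the threshold, both higher, beside 4.14% of all tested genes higher and 2.31% lower. *Ahnak* measured 278, 286 and 306 CPM in WT and 422, 485 and 388 in KO cells (0.57, SE 0.0862, edgeR adjusted p = 0.0106). The groups did not overlap, but without WT replicate 1 the edgeR adjusted p was 0.0501 and without WT replicate 2 it was 0.0664. *S100a10* measured 38.8, 35.8 and 36.7 CPM in WT and 46.1, 53.6 and 52.1 in KO cells (0.45, SE 0.0729, edgeR adjusted p = 0.0148), again apart, with an edgeR adjusted p of 0.086 without WT replicate 2 and 0.069 without WT replicate 3.

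*Axl* was 9.06 ± 1.68 CPM in WT and 6.54 ± 2.34 in KO cells (SD, n = 3), a log2 difference of −0.47 (edgeR adjusted p = 0.298) that became −0.80 with an edgeR adjusted p of 0.0474 without KO replicate 2. *Cd44* was 226 ± 1.52 and 225 ± 6.69 CPM, and *Vim* 371 ± 16.5 and 429 ± 64.5 (0.21, edgeR adjusted p = 0.255). KO replicate 2 was the highest library for *Ahnak*, *Cd44*, *Vim*, *Anxa5*, *S100a4*, *S100a6*, *S100a10* and *Lgals1*, and *Ahnak* and *S100a10* still passed without it. Summed markers of monocytes and macrophages, cells that express many of these genes, were 565 to 752 CPM in WT and 594 to 906 in KO libraries. Of the 10 markers in that sum only *Mpeg1* passed the threshold, rising from 193 to 312 CPM (edgeR adjusted p = 0.0259). It missed the threshold in 3 of 6 fits that left out 1 library. Among the stem and progenitor markers *Flt3* (81.8 to 132 CPM) and *Meis1* (39.7 to 57.6) passed as higher and *Hoxa9* (16.1 to 9.2) as lower, and the others did not pass. The part of any marker in the differences was not tested.

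With the IAP ASO, *Cd44* rose and *Ahnak*, *Anxa1* and *S100a6* fell, beside 19.9% of all tested genes higher and 19.7% lower. *Ahnak* measured 755, 762 and 766 CPM with the control ASO and 588, 573 and 568 with the IAP ASO (−0.40, SE 0.0269, edgeR adjusted p = 4.01e-13), and passed in every fit that left out a library. *Cd44* measured 353, 361 and 358 against 397, 407 and 395 CPM (0.16, SE 0.029, edgeR adjusted p = 3.84e-05). *S100a6* was 164 ± 8.31 and 146 ± 3.16 CPM (−0.17, edgeR adjusted p = 0.000428, and 0.294 with all 12 LK libraries in 1 fit). *Anxa1* was 301 ± 10.7 and 281 ± 5.41 CPM (−0.10, edgeR adjusted p = 0.0156), and its edgeR adjusted p was 0.0949, 0.125 and 0.11 without control replicate 2, control replicate 3 and IAP replicate 1, and 0.735 with all 12 LK libraries. The summed monocyte and macrophage markers were 1793 to 1834 CPM with the control ASO and 1647 to 1653 with the IAP ASO. The markers did not all move the same way. *Lyz2* fell from 617 to 400 CPM, and *Cd14*, *Csf1r*, *Itgam* and *Cd68* were also lower. *Mrc1*, *Fcgr1*, *Mpeg1* and *Ms4a6c* were higher, and the part of these markers in the differences was not tested. *S100a4* was the least abundant of the 10 in both experiments, at 0.861 ± 0.064 CPM in WT and 0.395 ± 0.105 in control ASO cells.

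**Figure D5:**
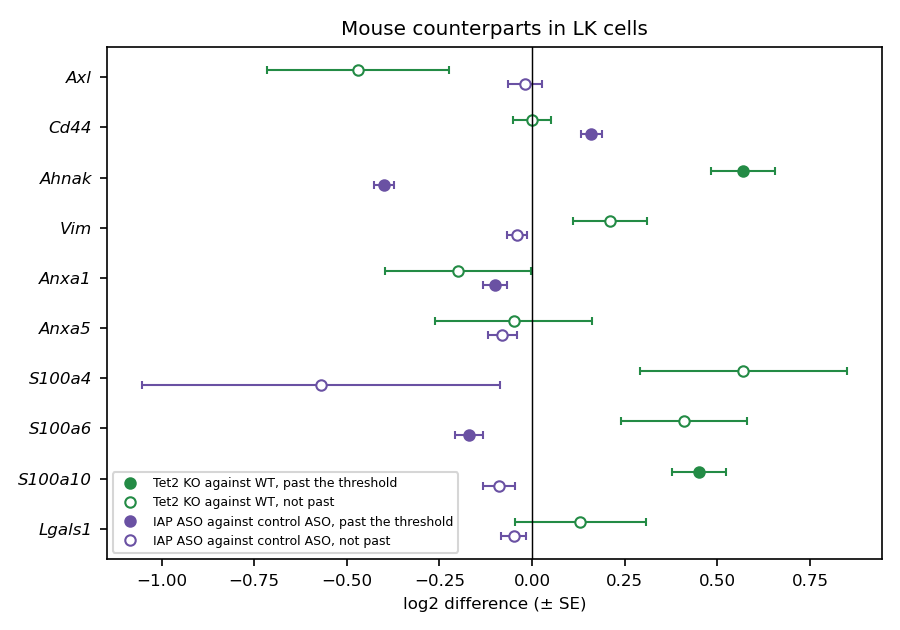
Log2 difference (± SE) of the mouse counterparts in LK cells for *Tet2* KO against WT (green) and the IAP ASO against the control ASO (purple); filled points passed an edgeR adjusted p under 0.05. *Ahnak* is at 0.57 in *Tet2* KO and at −0.40 with the IAP ASO.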

How the data were processed

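RNA from K-562 cells (poly(A)) and mouse LK cells (total RNA) was sequenced by the authors with a stranded kit. Per the labels, reads were processed with Trimmomatic 0.39, HISAT2 2.2.1 and HTSeq 0.12.4 on hg38 and mm10; the strand setting of the counting is not given in the sources used here. The deposited values are raw counts per gene, 1 file per library, with 3 libraries in each of 8 groups taken from the titles. Nothing in the labels says that replicates came from separate cultures. The paper describes the genome-wide data in its figures as combining 3 biological replicates. Whether each library here had its own culture is not given in the sources used here, so p-values may measure technical spread. Rows naming no gene (no feature, 10.4 to 13.8% in K-562 and 16.7 to 25.4% in LK; ambiguous, 2.09 to 4.33%) and spike-in rows were left out. Gene counts per library, in units of 1000000, were 27.6 to 39.9 in K-562, 53.5 to 70 in *Tet2* LK and 45.5 to 52.8 in ASO LK cells. Names and coordinates came from GENCODE, by gene identifier.

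Counts were fitted with edgeR 4.0.16 (filterByExpr, TMM, quasi-likelihood test, Benjamini-Hochberg over all tested genes), the 12 K-562 libraries together and each LK experiment apart. The script was tested on simulated data. CPM used TMM library sizes. The 10 genes and all lists were chosen with earlier results of these data known. Named related genes were at most 4 per list and comparison, past the threshold without overlap between groups, in order of difference; some values of *GAS6* and *MSN*, *HAS2* and the markers were added for their role after their values were seen. For each of the 10 genes, the 3 genes with the most similar pattern were named, except 1 that is not reported here. Alternatives were RLE size factors, DESeq2 1.42.0, spike-in scaling, no filter, only the groups compared, a replicate block, Y-linked expression as covariate, all 12 LK libraries, and leaving out each library.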

Additional observations from a re-analysis of the deposited data

Results flagged for a closer look

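Some effects of shMBD6 passed the threshold in opposite directions in WT and *TET2*-KO K-562 cells, with an interaction term past it as well. *ANXA1* had an interaction of −0.48 (SE 0.0445) on the log2 scale, from 0.21 in WT and −0.27 in KO cells, and *LGALS1* one of 0.49 (SE 0.0843), from −0.23 and 0.25. Both belong to the genes chosen on these libraries, so no p is given. Among related genes *ANXA4* had 0.75 (from −0.44 and 0.31, edgeR adjusted p = 7.53e-05), *LGALS8* 0.40 (from −0.28 and 0.13, edgeR adjusted p = 9.23e-06), *LGALS9* −0.85 (from 0.42 and −0.43, edgeR adjusted p = 0.00362) and *MYH10* −0.38 (from 0.14 and −0.24, edgeR adjusted p = 6.44e-07). Under spike-in scaling the interactions of *LGALS1*, *ANXA4* and *LGALS8* were −0.47, −0.21 and −0.55. Their effects were then higher in both genotypes, at 0.91 in WT and 0.44 in KO cells for *LGALS1*, 0.70 and 0.49 for *ANXA4*, and 0.86 and 0.31 for *LGALS8*, so the opposite directions did not hold for these 3. Of the 5 other galectins tested, 0 were lower past the threshold with shMBD6 in KO cells under that scaling. The fall of *LGALS9* in KO cells therefore did not pass there. Spike-in values of *MYH10* are not given here.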

How the results depend on the processing

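Of the K-562 log2 differences of the 10 genes under the alternatives, 591 moved by less than the spread, 47 moved further and 10 reversed. Those 10 had all passed the threshold at TMM scaling. The number of the 10 genes past the threshold stayed between 6 and 9 in the 5 K-562 comparisons under every alternative run, but their split into higher and lower did not hold under spike-in scaling, at 9 and 0 against 5 and 3 for shMBD6 in WT cells, 9 and 0 against 4 and 4 for *TET2* KO with shControl, and 0 and 8 against 3 and 4 for the interaction. Spike-in scaling reversed *S100A4* (0.22), *S100A6* (0.56) and *LGALS1* (0.91) for shMBD6 in WT cells, *ANXA1* (0.95), *ANXA5* (1.11), *S100A6* (1.02) and *LGALS1* (0.44) for *TET2* KO with shControl, and the interaction of *ANXA5* (−0.76), *S100A6* (−0.66) and *LGALS1* (−0.47). Differences that had not passed at TMM scaling also changed sign under spike-in scaling. These were *ANXA5* for shMBD6 in WT cells (1.08), *S100A10* for *TET2* KO with shControl (0.74), and the interactions of *VIM* (−0.88) and *S100A4* (−0.37). It moved the related genes past the threshold from 68 to 103 for shMBD6 in WT cells and from 51 to 99 for the interaction, and all genes from 7099 to 15475, from 7683 to 16181 (*TET2* KO with shControl) and from 3820 to 13321 (interaction). In *Tet2* KO LK cells 1126 genes passed, against 2010 with DESeq2, 474 with Y-linked expression as covariate, 2490 with all 12 LK libraries, 1815 without a filter, 358 with a replicate block and 215 to 1127 with 1 library left out; the mouse counterparts past it numbered 2, against 1 with the block and 0 to 3 with 1 library left out. With the IAP ASO 6528 genes and 4 counterparts passed, against 4322 and 2 with all 12 LK libraries. The deviations of same-number libraries from their group means were correlated between groups. These correlations lay between −0.03 and 0.02 in K-562, −0.14 and −0.04 in *Tet2* LK and 0.02 and 0.05 in ASO LK cells, so replicate numbers were not treated as pairs. The replicate block gave 7 or 8 of the 10 genes in each K-562 comparison, and *S100a10* missed the threshold with it in *Tet2* KO LK cells (edgeR adjusted p = 0.0666). The cause of these changes was not tested. *S100A4* and *S100A10*, at under 100 counts in every library, are limited by depth. So are *AXL* in WT shControl cells (34 to 48 counts) and *CD44* in WT shControl (40 to 72) and KO shControl cells (65 to 84).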
